A study of Homo sapiens with 6 samples.

Results

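The HOX genes encode homeodomain transcription factors that lie in 4 clusters, HOXA, HOXB, HOXC and HOXD. Members were the 39 protein-coding genes with a HOX symbol and a letter from A to D, out of 20175 protein-coding genes of the GENCODE annotation on hg19. All 39 were found. Chromatin accessibility was measured by ATAC-seq, in which the Tn5 transposase cuts and tags open DNA, in 3 established esophageal cell lines with 2 libraries each. HET-1A is a non-cancerous esophageal epithelial line and was cultured in BEBM with its additives. KYSE-30 and KYSE-150 are esophageal squamous cell carcinoma lines and were grown in RPMI/F12 with fetal bovine serum and an antibiotic-antimycotic. No group was treated, and each line is 1 established line that stands for no range of donors. The libraries are named by the number in their labels, HET-1A libraries 1 and 2, KYSE-30 libraries 4 and 6 and KYSE-150 libraries 7 and 8.

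The order of HOX genes along a cluster follows the order in which they act along the body axis. Genes of low paralogue number lie at one end and act in anterior structures such as the hindbrain and pharynx, and genes of high number lie at the other end and act in posterior and distal structures such as the limbs and the genital tract. Polycomb proteins keep silent stretches of a cluster compact, trithorax proteins and their histone methyltransferases keep active stretches open, and CTCF bound between genes separates the stretches. HOX proteins bind DNA with cofactors of the TALE class, the PBX, MEIS and PKNOX proteins.

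Each deposited list holds the peaks called in 1 library, and a peak was given to every HOX gene whose body it met or approached within 3 kb. The lists held 168 and 15979 peaks for HET-1A libraries 1 and 2, 547 and 259 for KYSE-150 libraries 7 and 8, and 1255 and 11671 for KYSE-30 libraries 4 and 6. Because libraries of 1 line differed so much in length, all counts are given per library, and a gene with no called peak is not shown to be closed. At the background of the whole genome, a peak needed at least 10, 12, 13, 13, 12 and 8 tags at its summit in these libraries, in the same order, where a tag is a read end extended over 200 bp. With 2 libraries a line, the smallest two-sided p of an exact permutation test is 0.33, so no difference between lines was tested and counts, positions and values are described. For the identity of the cells, 13 squamous epithelial marker genes were searched for a peak within 3 kb of a start site. HET-1A library 2 had such a peak at 2 (PERP and KRT6A) and KYSE-30 library 6 at 2 (GRHL2 and ESRP1), 15.4% each. The shares of all protein-coding genes in these libraries were 35.3% and 28.6%. Near the gene body, 4 and 3 of the 13 had a peak, beside 44.6% and 36.1% of all protein-coding genes. TP63, KRT5, KRT14 and CDH1 had none near a start in any list, so these lists do not identify the cells as squamous epithelium. Of 10 mesenchymal markers, FN1 had a peak near a start in HET-1A library 2 and VIM in KYSE-30 library 6, 10% each. The leukocyte (4) and endothelial (2) markers had none in any list.

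In all, 11 peaks lay in the windows of the HOX genes, 4 of them from HET-1A library 2 and 3 and 4 from KYSE-30 libraries 4 and 6. They formed 9 separate regions, of which 2 were called in 2 libraries, both times once in HET-1A and once in KYSE-30. Of these peaks, 9 are described one by one. Sequences of 3 peaks are shown first, because the results turn on where they lie. Each is the forward strand of hg19, at most 200 bases around the summit and cut to the peak, with every CpG in capitals. The HOXA5 sequence lies just upstream of the start of that gene, and the other pair are neighbouring intergenic sequences between HOXD13 and HOXD12.
HOXA5 upstream, HET-1A library 2, chr7:27183340-27183539: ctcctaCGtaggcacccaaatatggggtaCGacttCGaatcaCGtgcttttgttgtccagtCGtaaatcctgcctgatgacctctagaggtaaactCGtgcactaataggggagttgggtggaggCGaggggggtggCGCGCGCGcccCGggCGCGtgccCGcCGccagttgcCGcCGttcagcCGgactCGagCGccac
HOXD12 upstream, KYSE-30 library 6, chr2:176962343-176962542: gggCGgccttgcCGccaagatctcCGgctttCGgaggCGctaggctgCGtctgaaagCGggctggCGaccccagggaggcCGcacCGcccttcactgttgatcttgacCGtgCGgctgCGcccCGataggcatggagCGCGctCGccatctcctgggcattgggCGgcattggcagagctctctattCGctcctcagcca
HOXD12 upstream, KYSE-30 library 4, chr2:176962580-176962714: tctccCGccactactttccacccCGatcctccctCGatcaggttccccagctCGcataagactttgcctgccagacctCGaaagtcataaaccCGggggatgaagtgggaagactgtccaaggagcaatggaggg

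The HOXA5 upstream sequence holds 21 CpGs, and the HOXD sequences of KYSE-30 libraries 6 and 4 hold 19 and 6. Over the 200 bases around the summit of all 11 peaks, GC content was 45% to 67.5%, beside medians over all peaks of 55.5% for HET-1A library 2 and 58.5% and 54.5% for KYSE-30 libraries 4 and 6. The lowest value belonged to the HOXA3 intron. The letters of the CTCF core, CCANNAGNNGGC, were searched on both strands of the same 200 bases and occurred in 1 of the 11 peaks, the intergenic HOXD peak of KYSE-30 library 6, as ccaggagatggc on the reverse strand at chr2:176962487-176962498. Of all peaks, 4.06% of HET-1A library 2 and 2.87% and 2.81% of KYSE-30 libraries 4 and 6 held these letters. The composite site of PBX and HOX proteins, TGATTNAT, was found in none of the 11, beside 3.92%, 2.07% and 4.94% of all peaks in the same libraries. The AP-1 core, TGACTCA or TGAGTCA, was also found in none of the 11, beside 21.7%, 10.4% and 26.1% of all peaks. None of these searches overlapped another in the HOX peaks. The E-box letters CACGTG, searched after the sequences had been seen and the same on both strands, occurred in the HOXA5 window and in both HOXC13 windows, which share the same pair of matches, beside 5.54%, 6.22% and 4.96% of all peaks in the same libraries. Matches of letters are a description and show no binding.

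HOX genes with a peak were counted first (the map of peaks along the clusters). In HET-1A library 2, 7 of 39 HOX genes were called, which is 17.9% (Wilson 95% interval 8.98–32.7), where 44.6% of all protein-coding genes had one. KYSE-30 library 4 had a peak at 4 of 39, 10.3% (4.06–23.6), beside 5.26% of all genes. KYSE-30 library 6 had a peak at 6 of 39, 15.4% (7.25–29.7), beside 36.1%. In both long lists the interval lay below the share of all genes, and in KYSE-30 library 4 it held that share. The intervals cover counting error only and take genes as independent, which HOX genes are not. The windows of 32 of the 39 met the window of another HOX gene, and the 7 genes of HET-1A library 2 rest on 4 peaks. The remaining lists, HET-1A library 1 and KYSE-150 libraries 7 and 8, had no HOX gene with a peak. There 0 of 39 allows a share of up to 8.97% and the shares of all genes were 0.352% for HET-1A library 1 and 2.38% and 0.654% for KYSE-150 libraries 7 and 8. Those shares lie within what 0 of 39 allows, so the absence of HOX peaks in the short lists is no result about HOX genes. Over peaks the counts were 0 of 168, 0 of 547 and 0 of 259, with Wilson upper limits of 2.24%, 0.697% and 1.46% of those lists. Taking 3 counts as what a count of 0 allows, the limits are 1.79%, 0.548% and 1.16%.

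**Figure D1:**
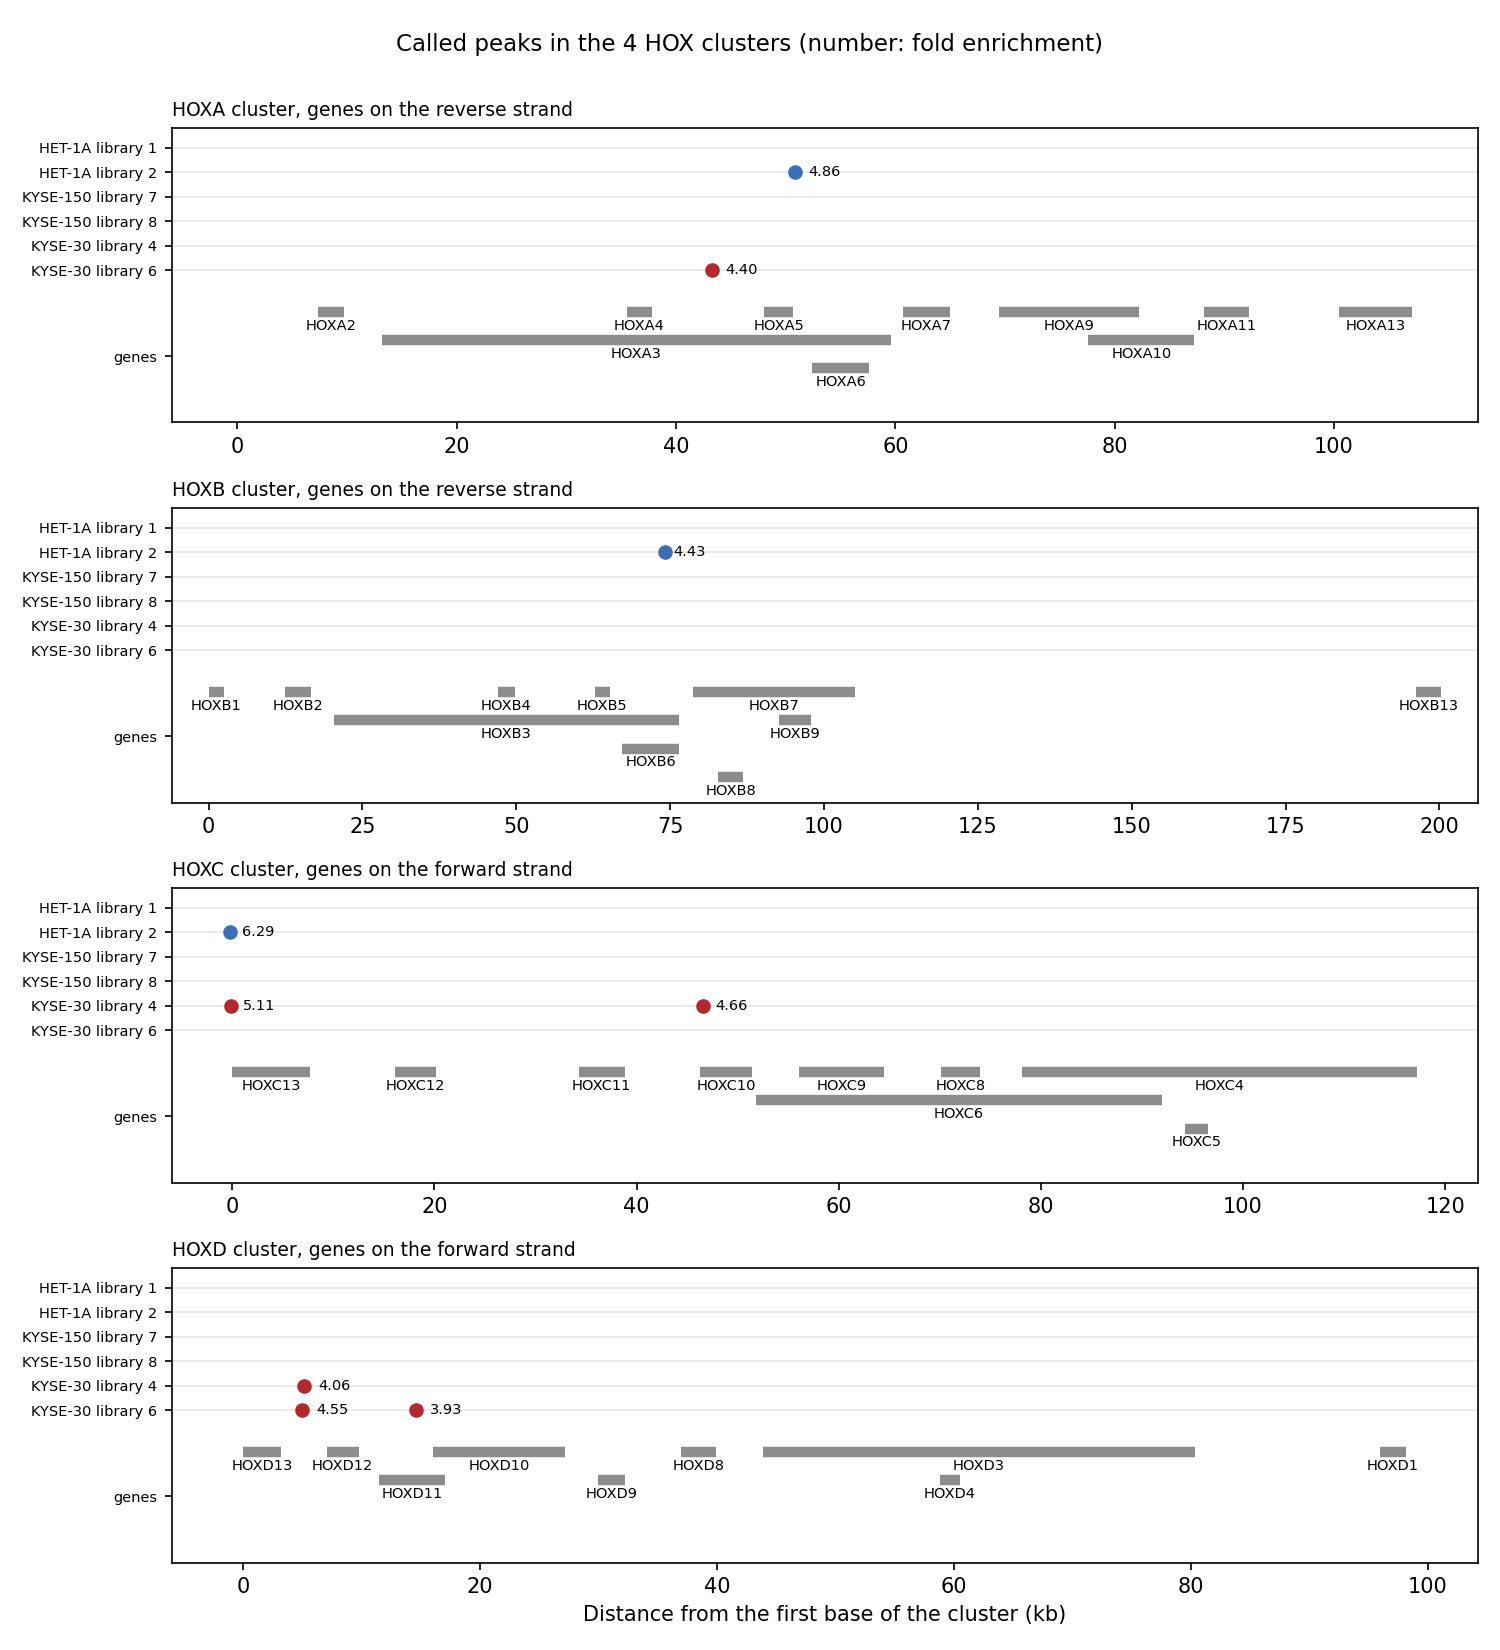
Called peaks in the 4 HOX clusters, drawn against the distance in kb from the first base of each cluster on hg19. Grey bars are gene bodies, each row above them is 1 library, and each dot is the summit of a called peak with its fold enrichment beside it. The 9 peaks drawn sit in 3 of the 6 libraries, and the pair at HOXC13 joins HET-1A library 2 with KYSE-30 library 4.

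HOX genes are short, with a median length of 4.22 kb beside 27.2 kb for all protein-coding genes, so a count over gene bodies favours other genes. Near start sites, within 3 kb of any annotated start, 5 of 39 HOX genes had a peak in HET-1A library 2, 12.8% (5.6–26.7), beside 35.3% of all genes. The same count was 3 of 39 in KYSE-30 library 4, 7.69% (2.65–20.3), beside 3.87%, and 4 of 39 in KYSE-30 library 6, 10.3% (4.06–23.6), beside 28.6%. HET-1A library 1 and KYSE-150 libraries 7 and 8 had 0 of 39, beside 0.0942%, 1.79% and 0.362% of all genes. Counted by start site, the interval for HOX genes again lay below the share of all genes in both long lists and held it in KYSE-30 library 4.

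CpG-rich starts, which are open in most cell types, were compared next. A start was called CpG-rich where the 300 bases around the outermost start had at least 55% GC and an observed to expected CpG ratio of at least 0.6. By that rule 19 of 39 HOX genes (48.7%) and 56.2% of all protein-coding genes had a CpG-rich start. The rule read the outermost start alone, while peaks were counted at any annotated start. HOXD11 was thus not CpG-rich by the rule (47.7% GC), though its peak over another of its starts had 64.5% GC around the summit. Among these 19, HET-1A library 2 had a peak near a start at 2, 10.5% (2.94–31.4), beside 45.3% of the 11339 genes with such a start. KYSE-30 library 4 had 3 of 19, 15.8% (5.52–37.6), beside 5.17%, and KYSE-30 library 6 also had 3 of 19, beside 36.9%. For HET-1A library 1 and KYSE-150 libraries 7 and 8 the count was 0 of 19, which allows up to 16.8%, beside 0.0882%, 2.31% and 0.397%. Over these 19 genes the interval lay below the share of all CpG-rich genes in HET-1A library 2, just above it in KYSE-30 library 4 and held it in KYSE-30 library 6.

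**Figure D2:**
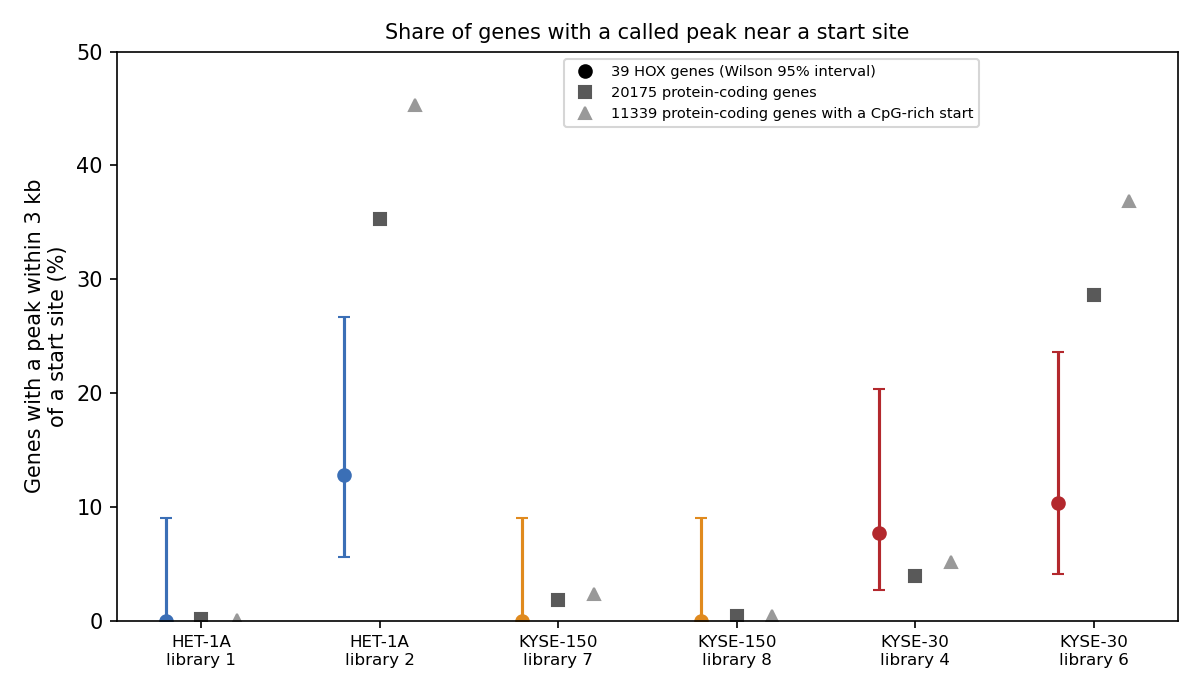
Share of genes, in percent, with a called peak within 3 kb of a start site in each of the 6 libraries. Coloured circles are the 39 HOX genes with Wilson 95% intervals, grey squares all 20175 protein-coding genes and grey triangles the 11339 genes with a CpG-rich start. In HET-1A library 2 and KYSE-30 library 6 the HOX shares of 12.8% and 10.3% sit under the squares at 35.3% and 28.6%, and in the other libraries the squares are within or at the foot of the interval.

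Counted by length of DNA, densities are described for the 3 libraries with any HOX peak, a choice that itself favours a high density in the clusters. HET-1A library 1 and KYSE-150 libraries 7 and 8 had 0 peaks in the clusters, beside 0.0543, 0.177 and 0.0837 per Mb of genome. The clusters with their 3 kb margins cover 0.547 Mb and hold 71.3 HOX genes per Mb, beside 6.52 protein-coding genes per Mb of genome. HET-1A library 2 had 7.32 peaks per Mb of cluster, beside 5.16 per Mb of genome, 7.74 per Mb of gene windows and 10 per Mb in the 500 kb to each side of the clusters. KYSE-30 library 6 had 7.32 per Mb of cluster, beside 3.77, 5.75 and 6. KYSE-30 library 4 had 5.49 per Mb of cluster, from 3 peaks, beside 0.405, 0.619 and 1.25. In both long lists the density of the clusters was thus above that of the genome, though these densities carry no interval. Against the windows of all protein-coding genes it was lower in HET-1A library 2 and higher in KYSE-30 library 6, from 4 peaks each. Of all called peaks, HOX peaks made up 0.025% (0.00974–0.0644) of HET-1A library 2, and 0.239% (0.0813–0.7) and 0.0343% (0.0133–0.0881) of KYSE-30 libraries 4 and 6.

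Calls by cluster rest on at most 2 peaks a cluster and library, and whether the clusters differ was not tested. HOXA, with 11 genes on chromosome 7, had 2 peaks at 4 genes in HET-1A library 2 and 2 peaks at 2 genes in KYSE-30 library 6. HOXB, 10 genes at chr17:46605888-46806112, had 1 peak at 2 genes, in HET-1A library 2. HOXC, 9 genes at chr12:54332615-54449814, had 1 peak at 1 gene in HET-1A library 2 and 2 peaks at 2 genes in KYSE-30 library 4. HOXD, 9 genes at chr2:176957449-177055635, had no peak in either HET-1A library, 1 peak at 2 genes in KYSE-30 library 4 and 2 peaks at 4 genes in KYSE-30 library 6. HOXB was thus called in HET-1A library 2 alone and HOXD in both KYSE-30 libraries, and whether the lines differ was not tested, as 1 library carries the HET-1A calls. In any library, 4 of 11 HOXA, 2 of 10 HOXB, 2 of 9 HOXC and 4 of 9 HOXD genes had a peak. The other 27 HOX genes had none in any list, among them HOXA9, HOXA13, HOXB7, HOXB13, HOXC6 and HOXD9. No share of all protein-coding genes over any list stands beside these counts, so they are no result about HOX genes in particular.

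By position along the clusters, anterior genes were paralogue groups 1 to 3, central genes groups 4 to 8 and posterior genes groups 9 to 13. In HET-1A library 2, 3 of 8 anterior, 3 of 15 central and 1 of 16 posterior genes had a peak. The counts of KYSE-30 library 4 were 0 of 8, 0 of 15 and 4 of 16, and those of KYSE-30 library 6 were 2 of 8, 0 of 15 and 4 of 16. Posterior genes made up 1 of the 7 called genes of HET-1A library 2, and all 4 and 4 of the 6 of KYSE-30 libraries 4 and 6. These counts rest on 3 and 4 peaks a library, since neighbours share a peak, and no test of position was made.

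**Figure D3:**
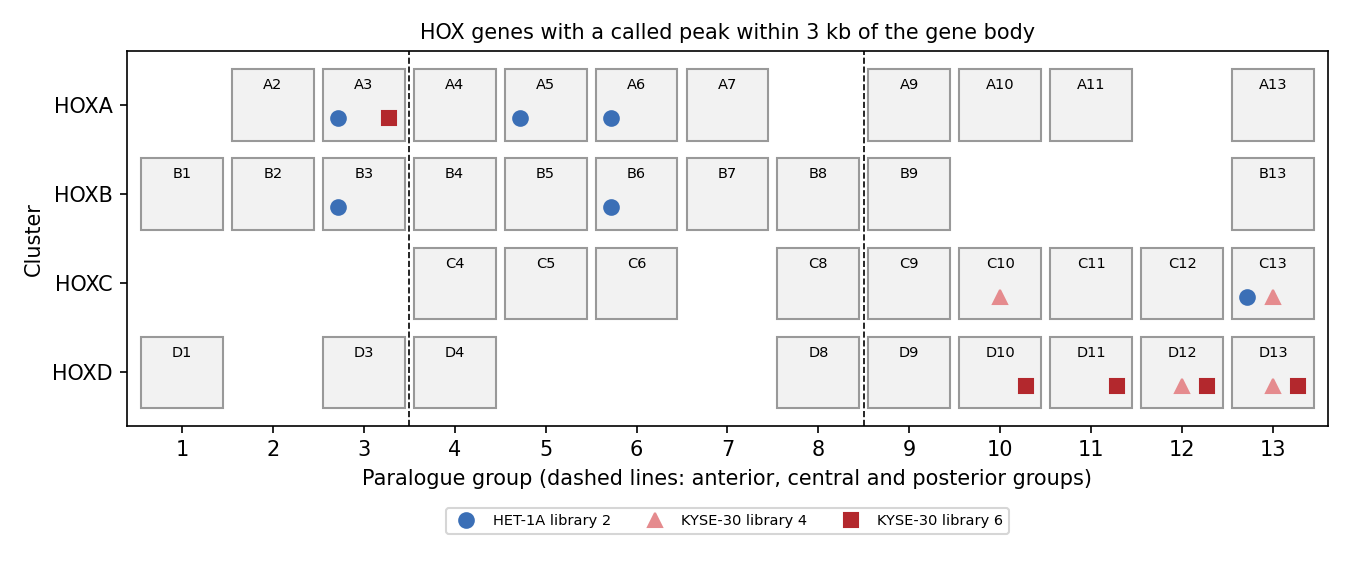
HOX genes as boxes, 1 of the 39 not drawn, by cluster (rows) and paralogue group (columns), with a symbol for each library that had a called peak within 3 kb of the gene body. The 3 libraries with no HOX peak are not drawn, and the dashed lines part anterior, central and posterior groups. Blue circles for HET-1A library 2 fall on anterior and central genes and on HOXC13, and KYSE-30 symbols fall on HOXA3 and posterior HOXC and HOXD genes.

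In the anterior groups, HOXA3, which acts in the pharyngeal arches and in the formation of the thymus and parathyroid glands, has a long annotated body that spans HOXA4, HOXA5 and HOXA6, and its calls in the long lists came from different DNA. In KYSE-30 library 6 the peak at chr7:27175609-27176178, in an intron 3935 bp past a HOXA3 start, was the widest HOX peak at 570 bp and had 16 tags over 2.86, a fold enrichment of 4.4 and a q-value of 2.41e-05. In HET-1A library 2 the peak at chr7:27183317-27183618 lay 140 bp upstream of the start of HOXA5, which acts in the development of the lung and foregut, and also within 3 kb of HOXA6. It had 38 tags over 7.02, a fold enrichment of 4.86 and a q-value of 6.16e-13. The summits were 7550 bp apart. The upstream HOXA5 peak was the highest HOXA peak of HET-1A library 2 by fold enrichment, and HOXA5 and HOXA6 had no peak in any other list.

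The 1 HOXB peak, at chr17:46679975-46680425 in HET-1A library 2, lay in the shared introns of HOXB3 and HOXB6. Its summit was 1371 bp past the nearest annotated start of HOXB6 and 270 bp past a start of HOXB-AS3, an antisense RNA of the cluster. It had 39 tags over a local background of 8.02, the highest local background of the HOX peaks at 2.4 times that of the genome, with a fold enrichment of 4.43 and a q-value of 6.66e-12. HOXB3 and HOXB6 had no called peak in the other 5 lists.

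Among posterior genes, HOXC13, which controls keratin genes of hair and nail, had the HOX peak of highest fold enrichment in both libraries that called it. In HET-1A library 2 the peak at chr12:54332197-54332586 had 41 tags over 5.68, a fold enrichment of 6.29 and a q-value of 3.72e-18, higher in fold enrichment than 93.5% of the peaks of that list. In KYSE-30 library 4 the peak at chr12:54332317-54332534 had 17 tags over 2.52, a fold enrichment of 5.11 and a q-value of 7.99e-06, higher than 85.6% of its list. All 218 bp of the second lay within the first, with summits 94 bp apart at 225 and 131 bp upstream of the HOXC13 start, inside the antisense gene HOXC13-AS. ATAC-seq has no strand, so signal of a gene and of its antisense partner cannot be told apart. The longer KYSE-30 list, library 6, had no peak at HOXC13, so the calls of the KYSE-30 libraries differed there.

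HOXC10, a gene of posterior axial and limb identity, had a peak in KYSE-30 library 4 alone, at chr12:54379049-54379416, with 21 tags over 3.72, a fold enrichment of 4.66 and a q-value of 3.19e-06. Its summit lay in coding sequence 301 bp past the nearest annotated HOXC10 start, and the peak covered a start of the antisense RNA HOXC-AS3. Of 40 non-coding genes in the clusters, 2 had a peak over a start in any list, HOXC-AS3 among them. HOTAIR and HOTTIP, non-coding RNAs known for work on HOX chromatin, had none.

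HOXD12 and HOXD13, which act in the digits and the genital tract, were the 2 HOX genes with a peak in both libraries of a line, KYSE-30. That is 5.13% of 39 (1.42–16.9), beside 4.21% of all protein-coding genes in both KYSE-30 libraries, a share near the background. No HOX gene had a peak in both libraries of HET-1A or of KYSE-150, where 0.263% and 0.0892% of all genes did. The calls at HOXD12 and HOXD13 were not the same peak. KYSE-30 library 4 had chr2:176962580-176962798, with 15 tags over 2.94, a fold enrichment of 4.06 and a q-value of 0.0014. KYSE-30 library 6 had chr2:176962267-176962544, with 13 tags over 2.08, a fold enrichment of 4.55 and a q-value of 8.98e-05. The peaks were parted by 35 bp and their summits by 172 bp, in intergenic DNA, 1908 and 2080 bp upstream of HOXD12. Both were weak for their lists, since 79.7% and 81% of the peaks had a p-value as small or smaller. No HOX region was called in both libraries of any line.

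HOXD10 and HOXD11, which act in the forearm and in nearby axial structures, shared the HOX peak of largest q-value, at chr2:176971954-176972153 in KYSE-30 library 6. It covered a HOXD11 start, had 10 tags over 1.8, a fold enrichment of 3.93 and a q-value of 0.00335, and 97.6% of the peaks of its list had a p-value as small or smaller. In KYSE-150 library 8 the running numbers of the called peaks skip 4 between the nearest peaks listed to either side of HOXD. That list has 0 peaks in the 500 kb to each side of HOXD, so the skipped numbers may lie far from it. Whether a peak called at the cluster is missing from the list cannot be told. The numbers ran without a gap across every cluster in the other lists, and across HOXA, HOXB and HOXC in that one.

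Over the 9 peaks described, fold enrichment ran from 3.93 to 6.29, tags at the summit from 10 to 41 and width from 200 to 570 bp. The summit lay within 500 bp of a HOX start in 5 of the 9. Local background was 1.07 to 2.4 times that of the genome, and its part in the calls was not tested. Fold enrichment is a value of the authors' peak caller within 1 list, and the median over all peaks was 4.22 for HET-1A library 2 and 4.29 and 5.47 for KYSE-30 libraries 4 and 6. The HOXA3 and HOXD peaks of KYSE-30 library 6 and the intergenic HOXD peak of KYSE-30 library 4 were below the median of their list, and the HOXC13, HOXA5, HOXB6 and HOXC10 peaks were above it.

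**Figure D4:**
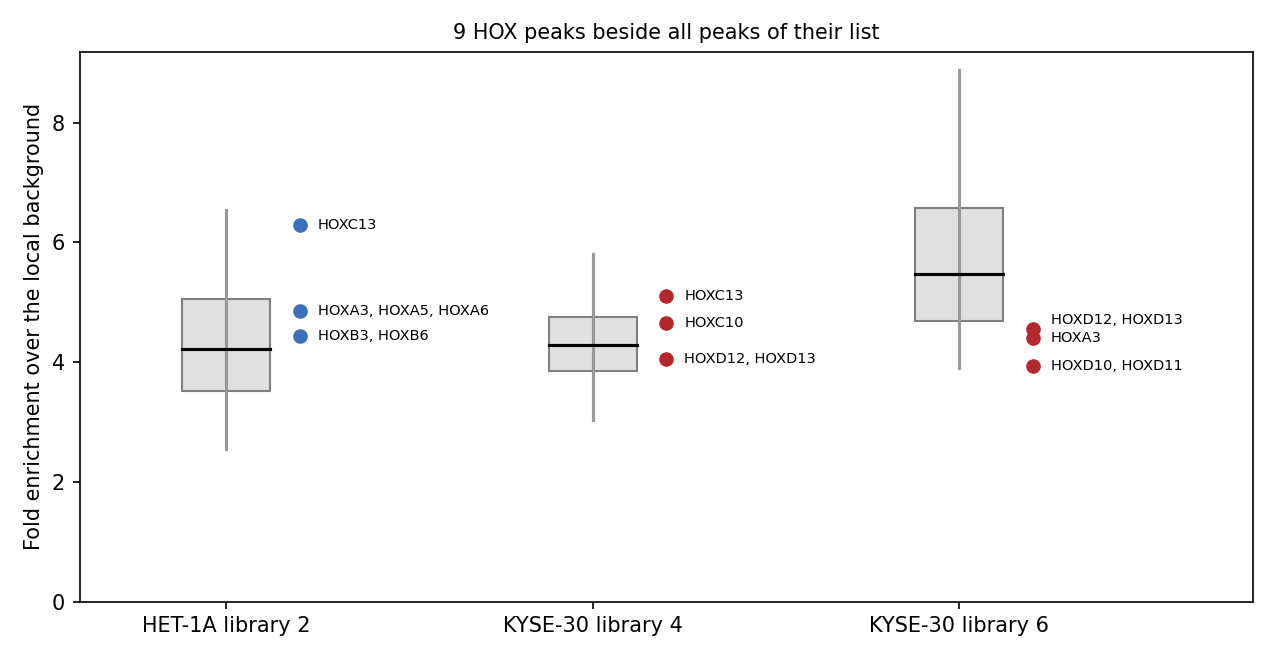
Fold enrichment over the local background for 9 HOX peaks (coloured dots, with the genes in whose windows they lie) in the 3 libraries that had any, beside all peaks of the same list (line: 5th to 95th percentile, box: 25th to 75th, black bar: median). HOXC13 at 6.29 stands near the top of HET-1A library 2, and the KYSE-30 library 6 dots, at 3.93 to 4.55, are under the median of 5.47.

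Between the long lists, 2 HOX genes had a peak in both, HOXA3 among them. That is 5.13% of 39 (1.42–16.9), beside 24.1% of all protein-coding genes. HET-1A library 2 alone of the pair had peaks at 5 genes, HOXA5, HOXA6, HOXB3, HOXB6 and HOXC13, and KYSE-30 library 6 alone at 4 genes, HOXD10, HOXD11, HOXD12 and HOXD13. These are 12.8% (5.6–26.7) and 10.3% (4.06–23.6) of the HOX genes, beside 20.5% and 12% of all protein-coding genes called in 1 of the pair alone in the same direction, and both intervals held those shares. Over all lists, 5 HOX genes were called in 2 libraries, 7 in 1 and 27 in none. The matching shares of all protein-coding genes are not given here, so these counts are no result about HOX genes in particular.

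The partners of HOX proteins were described in the same way, by peaks within 3 kb of a start. Of 9 TALE cofactor genes, 5 had a peak near a start in HET-1A library 2 and 5 in KYSE-30 library 6. The shares of all genes there were 35.3% and 28.6%. In KYSE-150 library 7 and KYSE-30 library 4, 1 each had one, beside 1.79% and 3.87% of all genes. MEIS1 had fold enrichments of 5.3 and 7.58 in HET-1A library 2 and KYSE-30 library 6, PBX3 of 5.17 and 7.71, and PKNOX1 of 5.48 and 7.37. MEIS2, PBX2 and PKNOX2 had no peak in any list. CpG-rich starts made up 7 of the 9, beside 19 of the 39 HOX genes, and the part of CpG content in the counts was not tested. Among all genes with such a start, the shares were 45.3% in HET-1A library 2 and 36.9% in KYSE-30 library 6. They were 2.31% in KYSE-150 library 7 and 5.17% in KYSE-30 library 4.

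Of 33 genes for regulators of HOX chromatin and transcription, HET-1A library 2 had a peak near a start of 18 (54.5%), KYSE-30 library 6 of 12 (36.4%) and KYSE-150 library 7 of 1 (CTCF), with none in the other 3 lists. The shares of all protein-coding genes were 35.3%, 28.6% and 1.79%. CpG-rich starts made up 23 of the 33, and among all genes with such a start the shares were 45.3%, 36.9% and 2.31%. CTCF had fold enrichments of 5.46 and 5.74 in the long lists and 3.61 in KYSE-150 library 7. KMT2A, a histone methyltransferase that keeps HOX genes active, had one of 6.45 in HET-1A library 2 and no peak in KYSE-30 library 6. ASH2L, its partner, had 4.98 and 8.39. The Polycomb genes EZH2, SUZ12, EED, BMI1, RING1 and RNF2 had no peak near a start in any list, and EVX1 and EVX2, the homeobox genes beside HOXA and HOXD, had none either.

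Other clustered gene families, named after the lists had been seen, are given beside the HOX genes as values only. Of 55 keratin genes, 9 (16.4%) had a peak near a start in HET-1A library 2 and 1 (1.82%) in KYSE-30 library 6. Of 246 zinc finger genes of chromosome 19, 69 (28%) and 68 (27.6%) had one. The shares of HOX genes in the same lists were 12.8% and 10.3%. CpG-rich starts made up 3 of the 55 keratin genes, 158 of the 246 zinc finger genes and 19 of the 39 HOX genes. Their part in these shares was not tested.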

How the data were processed

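ATAC-seq peaks of 6 libraries (3 lines, 2 biological replicates each) were taken as deposited. Per the labels and the study's methods, the authors trimmed and checked reads (FastQC 0.11.5), marked duplicates (Picard 2.2.1) and mapped to hg19 (Bowtie2 2.3.3.1). They removed blacklisted regions (bedtools 2.7.1), shifted reads for Tn5 and kept fragments under 100 bp. MACS2 2.1.0.20160309 was run on each library at a q-value of 0.05, with read ends extended to 200 bp. Replicates were not pooled. HOMER is also listed. The deposited columns hold a score, a fold enrichment (a ratio to the local background) and −log10 of the p-value and q-value. They are values within a library. Read totals are not given in the sources used here.

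Genes came from GENCODE release 44 on GRCh37, the same build as hg19. Tags and local background were recovered from fold enrichment and p-value. A peak meeting a gene body within 3 kb (overlap of at least 1 bp) was a call, and shares carry Wilson 95% intervals for counting error only. The scripts were tested on simulated peaks. Python 3.11.15, pandas 2.3.3 and scipy 1.17.1 were used. Genes described in full were those called in both libraries of a line, the highest peak of each cluster in both long lists, those called in 1 of these and not in the other, and non-coding genes with a peak over a start. The other members are given by counts, and the remaining HOX peaks were described after their values were seen. Members, lists and rules were chosen with earlier results of these data known. PECAM1, of the endothelial list, was not matched and not used. Alternatives were stricter q-values, other windows, equal numbers of peaks and each library left out. Single values of 1 HOX gene and of 1 cofactor gene, and some sequences, are not reported here.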

Additional observations from a re-analysis of the deposited data

How the results depend on the processing

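Of 136 alternative values for 20 counts, 110 stayed within 1.5 times the count reported and 26 did not. The 110 include every alternative for the counts reported as 0. Stricter q-values, narrower windows and shorter lists could not raise a count of 0, so the 110 do not measure how stable the counts are. The counts of HOX genes with a peak were 7 for HET-1A library 2 and 4 and 6 for KYSE-30 libraries 4 and 6. With the gene body alone they were 3, 1 and 3, and with 1 kb around start sites they were 3, 2 and 2. With 1 kb around the gene body, KYSE-30 libraries 4 and 6 had 2 and 3. At a q-value under 0.001, KYSE-30 library 4 had 2, and the genes called in KYSE-30 library 6 and not in HET-1A library 2 fell to 2 from 4. With the 168 peaks of smallest p-value per library, all 3 counts were 0. Genes called in both KYSE-30 libraries, 2 as reported, were 0 at a q-value under 0.001, with the gene body alone and with 1 kb around the gene body or start sites, and 1 with 3 kb around start sites or with the nearest start. Genes called in either HET-1A library, 7 as reported, were 3 with the gene body alone or 1 kb around start sites, and 0 to 7 with 1 library left out: without library 2 none was left. Genes called in either KYSE-30 library, 8 as reported, were 4 with the gene body alone, 5 with 1 kb around it, 4 with 1 kb around start sites, and 4 to 6 with 1 library left out. The narrower windows and shorter lists hold fewer peaks by construction. For the counts over either library of a line, no share of all protein-coding genes is given.

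The counts rest on called peaks, so list length limits what can be seen, and the HET-1A calls rest on library 2 alone. Libraries of different lines carry different numbers, so no paired analysis was possible because no number is shared.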
